A study of Mus musculus with 60 samples.

Results

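The genotype by diet interaction in the mouse hippocampus was examined in 20 of the 60 libraries of the series, 1 library from each of 20 mice. The libraries were chosen by their labelled tissue, and fell into 4 groups of 5 mice. Glo1 knockout mice (KO) and their wild-type counterparts (WT) received pellets that held, per 100 g, either 1.4 mg of vitamin B6 (normal diet) or 5 µg of it (lacking diet), from 8 to 12 weeks of age. The vitamin B6 level in the labels was 58.25 to 78.09 ng/µl in mice on the normal diet and 2.25 to 5.63 ng/µl on the lacking diet, in a material that the labels do not name. The strain, the knockout construct and the sex of the mice are not given in the sources used here. The interaction is the log2 difference between the lacking and the normal diet in KO mice, minus the same difference in WT mice. A positive value therefore means that the diet difference was higher in KO mice, and a negative value that it was lower. It addresses which genes respond to the diet in opposite ways in the 2 genotypes.

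Glo1 encodes glyoxalase 1, which detoxifies methylglyoxal, a reactive carbonyl compound formed as a by-product of glycolysis. Vitamin B6, in its active form pyridoxal phosphate, is the cofactor of enzymes that make and break down amino acids and neurotransmitters, among them the glutamate decarboxylases that make GABA. Pyridoxamine, another form of the vitamin, can trap reactive carbonyls. The hippocampus is the brain region of the dentate gyrus and the CA fields, and serves memory and spatial navigation.

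The 20 libraries held between 9081469 and 13928265 counts. Glo1 had 534 to 734 counts in the WT libraries and 0 to 9 counts in the KO libraries, which matched the labelled genotypes; the KO library with 0 counts had a floor of 0.286 CPM (counts scaled to the size of the library) at 3 counts. The dentate gyrus markers Prox1 and C1ql2 matched the labelled tissue: Prox1 had 28.1 to 34.9 RPKM in the hippocampus and 2.69 to 4.71 RPKM in the other 2 regions of the same mice. All WT libraries carried batch number 2 in the labels and all KO libraries batch number 1, so batch and genotype cannot be told apart. Each diet difference lay within 1 batch. The interaction, however, sets the diet difference of batch 1 against that of batch 2, so genotype and batch cannot be told apart in it either. The library of mouse 226 (WT, lacking diet) stood apart, at 59.6 on a first principal component that held 24.6% of the variance, followed by mouse 286 (WT, normal diet) at 26.6. The counts without mouse 226 follow the gene lists.

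No gene passed the test of the interaction after adjustment over all genes. The edgeR quasi-likelihood test called 0 of 13393 genes (0%) at a Benjamini-Hochberg adjusted p below 0.05, and the smallest adjusted p was 0.514. DESeq2 and limma also called 0 genes, with 1344 and 1268 genes at an unadjusted p below 0.05. Without adjustment edgeR gave 1265 genes (9.45%), of which 621 (4.64%) had a diet difference that was higher in KO and 644 (4.81%) one that was lower in KO. These unadjusted counts are used below only as a background against which the genes of each pathway are read.

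Genes with a small p for the diet in each genotype and opposite directions were few. With an unadjusted p below 0.05 in each genotype, 20 genes (0.149%) were higher on the lacking diet in KO mice and lower in WT mice, and 22 genes (0.164%) were lower in KO and higher in WT. The diet alone gave 878 genes (6.56%) in KO and 540 genes (4.03%) in WT at an unadjusted p below 0.05, and 0 in either genotype after adjustment. Over all genes tested, 8464 of 13393 had diet differences of opposite sign in the 2 genotypes, and the diet differences in KO and WT had a Pearson correlation of -0.175 across genes, which are not independent replicates. It was -0.316 without mouse 226 and -0.0535 with an offset for the GC trend described below. Counted without a model, a single gene, Ercc4 (0.00747% of those tested), had 5 lacking-diet libraries entirely below the 5 normal-diet libraries in KO and entirely above them in WT, and 0 genes (0%) had the reverse. By comparison, 228 genes (1.7%) lay entirely higher and 142 (1.06%) entirely lower on the lacking diet in KO alone, and 39 (0.291%) and 29 (0.217%) did so in WT alone.

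**Figure D1:**
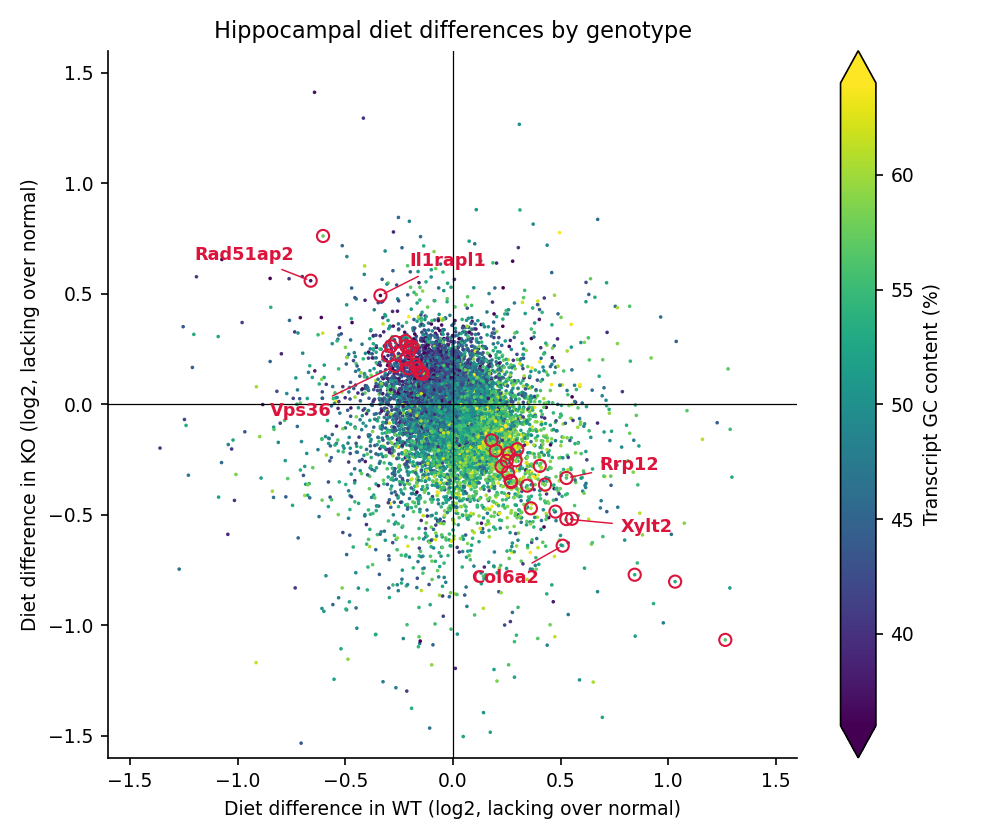
Diet difference (log2, lacking over normal diet) of each gene in WT mice (horizontal axis) against that in KO mice (vertical axis), 1 point per gene with a known transcript, coloured by transcript GC content; red rings mark the 42 genes with opposite differences at an unadjusted p below 0.05 in each genotype. GC-poor genes (dark) lie mostly to the upper left and GC-rich genes (yellow) to the lower right; 15 genes lie outside the axes.

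What the genes on either side of the interaction shared was the base composition of their transcripts. The 601 genes with a higher diet difference in KO and a known transcript had a median transcript GC content of 41.9%, and the 629 with a lower one had 56.3%, against 49.5% over the 13093 genes with a value. As examples, 120 bases from the middle of the coding sequence are printed for the first 2 genes in each direction, ranked by interaction p among the named genes with opposite differences in both genotypes. They are written 5′ to 3′ with G and C in capitals, from the longest transcript in GENCODE M21 (GRCm38). Il1rapl1 and Vps36 were higher in KO and lower in WT on the lacking diet, and Rrp12 and Atp13a1 were lower in KO and higher in WT.
Il1rapl1: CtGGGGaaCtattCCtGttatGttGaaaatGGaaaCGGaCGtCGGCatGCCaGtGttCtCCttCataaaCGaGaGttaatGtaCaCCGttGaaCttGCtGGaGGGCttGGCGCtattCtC
Vps36: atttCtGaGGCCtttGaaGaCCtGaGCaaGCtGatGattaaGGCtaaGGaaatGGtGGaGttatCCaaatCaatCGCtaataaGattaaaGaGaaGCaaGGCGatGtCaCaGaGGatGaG
Rrp12: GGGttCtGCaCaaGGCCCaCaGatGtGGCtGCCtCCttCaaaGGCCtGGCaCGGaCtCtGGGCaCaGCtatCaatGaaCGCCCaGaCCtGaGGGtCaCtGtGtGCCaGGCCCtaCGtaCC
Atp13a1: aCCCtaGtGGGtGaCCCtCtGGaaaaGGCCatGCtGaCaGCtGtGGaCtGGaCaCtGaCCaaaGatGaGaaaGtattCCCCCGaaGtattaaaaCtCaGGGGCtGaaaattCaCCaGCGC
The windows held 57 (Il1rapl1), 50 (Vps36), 73 (Rrp12) and 61 (Atp13a1) G or C bases, and the whole coding sequences were 43.2%, 49.0%, 56.4% and 58.3% G and C. The whole transcripts were 36.2%, 46.2%, 55.8% and 58.3%, and the windows 47.5%, 41.7%, 60.8% and 50.8%. A short window can thus differ from its transcript. Il1rapl1 lies on chrX:86740870-88115645 (minus strand), Vps36 on chr8:22192809-22220843 (plus strand), Rrp12 on chr19:41862851-41896173 (minus strand) and Atp13a1 on chr8:69791163-69807749 (plus strand).

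Across genes the interaction fell along this axis in steps. With the genes ordered by transcript GC content and divided into 5 classes of about 2619 genes, the median interaction was 0.18 in the class of lowest GC content, then 0.09, -0.02, -0.13 and, in the class of highest GC content, -0.25 on the log2 scale. In the lowest class 399 genes had a higher diet difference in KO at an unadjusted p below 0.05 and 3 a lower one; in the highest class 5 were higher and 371 lower. The 2 genotypes ran in opposite directions: from the lowest to the highest class the median diet difference went from 0.10 to -0.14 in KO and from -0.08 to 0.10 in WT. The correlation across genes between the interaction and GC content was -0.475 for the whole transcript, -0.442 for the 3′ UTR, -0.359 for the coding sequence and -0.0493 for the 5′ UTR. Promoters differed little, with a median GC content of 60% in the genes higher in KO, 62.5% in those lower in KO and 61% in all. Transcript length had a correlation of 0.0481 with the interaction.

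The same axis separated single libraries. For each library, a GC difference was taken as the median deviation from the gene mean in the GC-rich class minus that in the GC-poor class, in log2 CPM. In KO mice it was -0.143, 0.195, 0.128, 0.310 and 0.290 on the normal diet and 0.00680, -0.0131, -0.213, 0.0177 and -0.193 on the lacking diet. In WT mice it was 0.0840, 0.219, -0.208, -0.490 and -0.199 on the normal diet and 0.224, -0.480, 0.335, 0.207 and 0.0435 on the lacking diet. The groups overlapped in both genotypes: 4 of 5 KO libraries on the normal diet lay above all 5 on the lacking diet, and mouse 267 lay among them, while 1 WT library on the lacking diet, that of mouse 226, lay at the bottom with mouse 286. The diet difference of this value was -0.235 in KO (exact two-sided permutation p = 0.0556, 5 libraries a group) and 0.185 in WT (exact permutation p = 0.397), and the interaction was -0.42 (exact permutation of the diet labels within genotype, p = 0.0598). GC content was taken up after the interaction of these same libraries had been seen. These p-values are therefore not an independent test of the pattern.

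**Figure D2:**
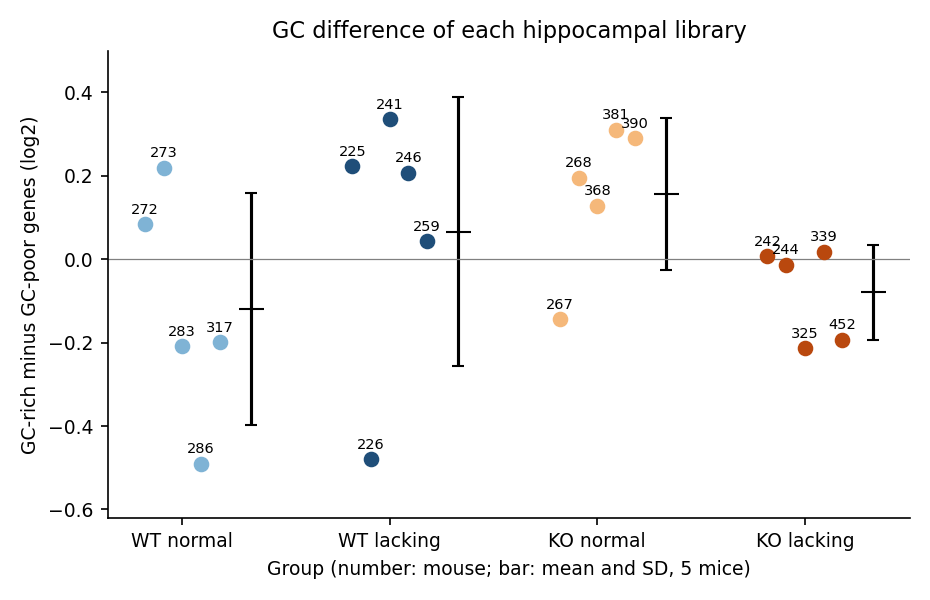
GC difference of each of the 20 hippocampal libraries (vertical axis, log2: median deviation of GC-rich genes minus that of GC-poor genes), by group; numbers are mice, and bars give the mean and SD of 5 mice. The values range from -0.490 (mouse 286) to 0.335 (mouse 241), and overlap between diets in each genotype.

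When the GC trend of each library was taken out by an offset in the fit, 571 genes had an unadjusted p below 0.05 (4.26%), 271 (2.02%) higher and 300 (2.24%) lower in KO. The offset was estimated from these same libraries and takes out any interaction that follows GC content. Values with the offset therefore cannot tell a technical source of the trend from a biological one. Of the 1265 genes, 362 were called in the same direction with the offset, which is 28.6% of the first list and 63.4% of the second. Opposite differences in both genotypes then stood at 11 genes (0.0821%) higher in KO and 4 (0.0299%) lower, and no gene passed after adjustment (smallest adjusted p 0.979). RNA integrity numbers overlapped between all groups, at 8.3 to 9.0 on the normal and 8.5 to 9.3 on the lacking diet in KO, and at 8.3 to 8.9 and 8.3 to 9.0 in WT; with this number as a covariate 1080 genes had an unadjusted interaction p below 0.05. Mice 286 (8.9), 226 (9.0) and 267 (9.0) had the highest integrity number of their groups and also the lowest GC difference. In KO on the lacking diet the highest number was that of mouse 452 (9.3), and the lowest GC difference that of mouse 325 (8.8). Total counts were higher on the lacking diet by 1877910 in KO (exact permutation p = 0.0873) and by 900902 in WT (exact permutation p = 0.135). The part of either in the GC pattern was not tested.

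Among the genes that were higher in KO and lower in WT on the lacking diet, the 12 of smallest interaction p among genes with a mean of at least 1 CPM included Cr2, Il1rapl1, Vps36, Zcchc16, Rad51ap2, Ostm1, Cdh12, Rrm2b, Ctbs, Mtx2 and Lrrc40. All had an adjusted p of 0.514, and 5 of the 12 had an unadjusted p below 0.05 for the diet in each genotype. Il1rapl1 encodes a synaptic adhesion protein of the interleukin 1 receptor family that organises excitatory synapses. In KO mice it stood at 36.4, 31.7, 29.9, 23.9 and 28.4 CPM on the normal diet and at 32.7, 37.1, 52.2, 42.2 and 46.8 CPM on the lacking diet. In WT mice it stood at 33.1, 27.3, 43.3, 45.6 and 35.6 CPM on the normal diet and at 26.8, 38.6, 23.8, 28.4 and 28.7 CPM on the lacking diet. The diets overlapped in both genotypes, and the highest WT library on the lacking diet was that of mouse 226. The diet difference was 0.49 (SE 0.15) in KO and -0.34 (SE 0.15) in WT, and the interaction 0.83 (SE 0.21, unadjusted p = 0.000572), or 0.95 without mouse 226.

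Vps36, a subunit of the ESCRT-II complex that sorts ubiquitylated membrane proteins in endosomes, differed by less but with less spread. Its level in WT mice was 39.1, 33.5, 39.2, 37.2 and 35.2 CPM on the normal diet and 30.8, 27.3, 31.1, 31.9 and 31.6 CPM on the lacking diet, so that the diets did not overlap. In KO mice it was 35.9, 30.6, 33.8, 32.7 and 31.9 CPM on the normal diet and 33.03, 35.4, 38.1, 40.1 and 39.3 CPM on the lacking diet, with overlap. The interaction was 0.44 (SE 0.11, unadjusted p = 0.000594), and 0.37 with the GC offset (unadjusted p = 0.00222).

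Rrm2b and Cr2 show the range of levels among these 12 genes. Rrm2b encodes the p53-inducible subunit of ribonucleotide reductase, which supplies deoxynucleotides for DNA repair and mitochondrial DNA. In KO it was at 97.9, 91.2, 95.2, 92.0 and 89.4 CPM on the normal diet and at 101, 103, 108, 102 and 108 CPM on the lacking diet, with no overlap, and at 102, 93.0, 107, 119 and 97.9 CPM against 86.6, 98.0, 93.2, 91.0 and 93.5 CPM in WT. Its interaction of 0.33 (SE 0.09, unadjusted p = 0.00155) was 0.11 with the GC offset (unadjusted p = 0.184). Cr2, the complement receptor CD21, was near the lower limit of detection: 2.18, 1.76, 1.45, 2.30 and 1.82 CPM in WT on the normal diet against 0.996, 1.07, 0.474, 0.578 and 1.02 CPM on the lacking diet, with no overlap. In KO it was 1.67, 1.34, 1.21, 0.568 and 1.11 CPM against 1.87, 1.63, 1.24, 1.55 and 2.57 CPM. Its interaction was 1.77 (SE 0.43, unadjusted p = 0.000372), and 1.604 with the GC offset.

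The other genes named in this direction had interactions between 0.33 and 1.22. Cdh12, a type II cadherin of neurons, averaged 44.0 ± 5.51 CPM (SD, n = 5) and 52.7 ± 3.54 CPM in KO on the normal and lacking diet, and 51.0 ± 3.90 and 44.7 ± 3.49 CPM in WT; its interaction was 0.45, and 0.22 with the GC offset. Ostm1, a membrane subunit of the lysosomal chloride transporter ClC-7, averaged 92.8 ± 4.84 and 109 ± 4.10 CPM in KO, where the diets did not overlap, and 104 ± 6.37 and 96.9 ± 6.07 CPM in WT. Ctbs, the lysosomal chitobiase that trims glycoprotein glycans, averaged 13.97 ± 2.98 and 17.1 ± 3.06 CPM in KO and 19.97 ± 5.36 and 13.8 ± 0.742 CPM in WT. Mtx2, a protein of mitochondrial import, averaged 35.4 ± 1.83 and 38.7 ± 1.78 CPM in KO and 39.5 ± 2.35 and 33.8 ± 1.35 CPM in WT, where the diets did not overlap. Rad51ap2 averaged 3.08 ± 0.885 and 4.53 ± 0.996 CPM in KO and 4.46 ± 1.01 and 2.80 ± 0.617 CPM in WT. Zcchc16, for which the annotation held no entry of that name, had an interaction of 0.80, and Lrrc40 one of 0.39.

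With the GC offset, 9 of these 12 had an unadjusted p below 0.05, the exceptions being Cdh12, Rrm2b and Lrrc40. Zcchc16, among the 9, has no GC value and received no offset, so its value there says nothing about the GC trend. All 11 with a known transcript had a GC content below the median of all genes, from 36.2% to 46.2%. Of all 75-base windows of the longest transcript, 30.19% in Lrrc40 were shared with the antisense gene B230334C09Rik, 6.17% in Ostm1 with the antisense gene Gm15200 and 7.42% in Rrm2b with Gm49085 and Gm8616. Ctbs overlaps Spata1 on the other strand and Cdh12 overlaps Gm49685. The strand setting of the counting is not given in the sources used here, so the values of these 5 genes are uncertain.

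In the other direction, lower in KO and higher in WT on the lacking diet, the 12 genes were Rrp12, Atp13a1, Thop1, Rnf123, Col6a2, Pcdh1, Syvn1, Xylt2, Col26a1, Usf1, Cyth4 and Ercc4, again all with an adjusted p of 0.514, and 10 of the 12 had an unadjusted p below 0.05 for the diet in each genotype. Rrp12, a factor of ribosome assembly and export, had the smallest interaction p of all genes. In KO it was at 13.5, 16.9, 12.9, 13.9 and 16.4 CPM on the normal diet and at 10.1, 12.9, 13.1, 11.6 and 10.5 CPM on the lacking diet. In WT mice it was at 10.5, 14.6, 10.8, 9.07 and 10.2 CPM on the normal diet and at 16.7, 19.1, 15.8, 15.04 and 13.1 CPM on the lacking diet. In WT a single library on the normal diet, that of mouse 273, reached into the range of the lacking diet, and in KO the lacking-diet libraries of mice 244 and 325 lay above the lowest normal-diet library, that of mouse 368. The diet difference was -0.33 (SE 0.13) in KO and 0.53 (SE 0.13) in WT, and the interaction -0.86 (SE 0.19, unadjusted p = 0.000118), or -0.69 with the GC offset (unadjusted p = 0.00149).

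Atp13a1 encodes a transporter of the endoplasmic reticulum that removes misplaced mitochondrial tail-anchored proteins. In WT mice it was at 11.2, 12.2, 11.3, 7.92 and 12.5 CPM on the normal diet and at 18.3, 13.01, 16.2, 13.9 and 13.1 CPM on the lacking diet, with no overlap. In KO mice it was at 12.2, 15.4, 14.2, 18.2 and 18.2 CPM on the normal diet and at 11.1, 13.96, 11.4, 12.3 and 12.0 CPM on the lacking diet, with overlap. The interaction was -0.79 (SE 0.19, unadjusted p = 0.000418), and -0.55 with the GC offset (unadjusted p = 0.00199). Atp13a1 overlaps the gene Zfp866 on the other strand, which makes its value uncertain.

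Ercc4 lies on chr16:13109684-13150617 (plus strand) and encodes XPF, a nuclease subunit of nucleotide excision repair. It was the gene whose diets did not overlap in either genotype, in opposite directions. In WT mice it was at 19.5, 18.8, 19.7, 19.6 and 19.4 CPM on the normal diet and at 21.99, 26.02, 22.8, 22.6 and 22.2 CPM on the lacking diet. In KO mice it was at 21.2, 20.7, 19.99, 19.96 and 20.5 CPM on the normal diet and at 19.86, 19.3, 17.5, 17.3 and 19.0 CPM on the lacking diet. The gap in KO was narrow, between 19.86 and 19.96 CPM. The diet difference was -0.14 (SE 0.08) in KO and 0.25 (SE 0.08) in WT, and the interaction -0.39 (SE 0.11, unadjusted p = 0.00182). With a transcript GC content of 49.3%, near the median of all genes, its interaction with the GC offset was also -0.39.

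Several of these genes crossed over almost symmetrically, with KO on the normal diet close to WT on the lacking diet, and the reverse. Xylt2, a xylosyltransferase that starts the glycosaminoglycan chains of proteoglycans, averaged 3.97 ± 0.982 CPM (SD, n = 5) in WT and 5.72 ± 1.02 CPM in KO on the normal diet, and 5.71 ± 1.49 and 3.98 ± 0.469 CPM on the lacking diet. Col6a2, a chain of collagen VI made by fibroblasts, averaged 3.85 ± 1.46 and 5.49 ± 0.687 CPM on the normal diet and 5.54 ± 0.779 and 3.54 ± 0.634 CPM on the lacking diet, in the same order of genotypes. Cyth4, a guanine nucleotide exchange factor of blood-derived and microglial cells, averaged 5.74 ± 1.00 and 7.35 ± 0.728 CPM on the normal diet and 7.31 ± 0.834 and 5.69 ± 0.547 CPM on the lacking diet. The interactions were -1.05 for Xylt2, -1.15 for Col6a2 and -0.71 for Cyth4. These genes were chosen for opposite diet differences, so the opposite directions describe the choice. Levels of KO and WT also differ by batch, so their closeness across genotypes cannot be read apart from batch.

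**Figure D3:**
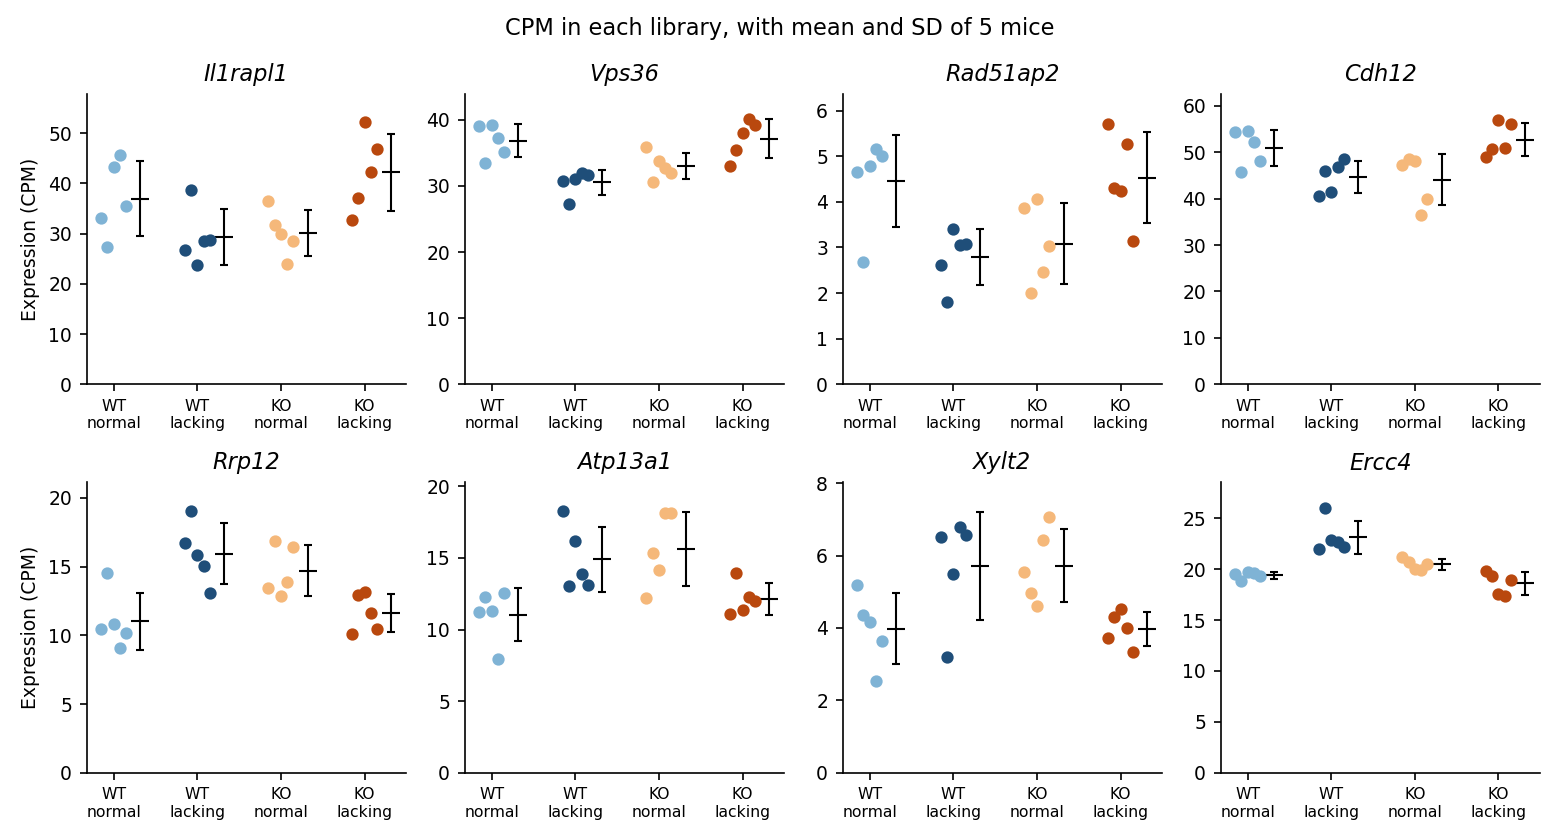
CPM of 8 named genes in each library, by group, with the mean and SD of 5 mice beside the points; the upper row holds genes higher in KO and lower in WT on the lacking diet, the lower row the reverse. Only Ercc4 has no overlap between the diets in both genotypes.

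Of the remaining genes, Thop1 is an oligopeptidase that degrades neuropeptides and peptides released by the proteasome, and averaged 10.3 ± 0.596 and 7.41 ± 1.56 CPM in KO on the normal and lacking diet, without overlap. In WT it averaged 8.10 ± 1.19 and 10.42 ± 1.68 CPM. The ubiquitin ligases Rnf123 and Syvn1, of which Syvn1 (HRD1) removes misfolded proteins from the endoplasmic reticulum, had interactions of -0.62 and -0.68. Pcdh1, a protocadherin, was the most abundant of the 12, at 177 ± 22.2 and 153 ± 14.4 CPM in KO and 136 ± 13.9 and 167 ± 18.9 CPM in WT, with an interaction of -0.50. Usf1, a transcription factor of lipid and glucose genes, had an interaction of -0.51. Col26a1, a collagen, had the largest interaction of the 12, -1.91 (SE 0.53), at levels of 0.219 to 1.92 CPM. With the GC offset 11 of the 12 had an unadjusted p below 0.05, the exception being Usf1 (unadjusted p = 0.0604). Transcript GC content ranged from 49.3% in Ercc4 to 60.7%, and was above the median of all genes in the 11 genes other than Ercc4. Of the 75-base windows of Usf1, 14.09% were shared with Gm12345 and Tstd1, the latter on the same strand, and of those of Rnf123, 7.07% with the antisense genes Gm20529 and Gmppb. Syvn1 overlaps Mrpl49 on the other strand, so these values are uncertain too.

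The 42 genes with opposite differences at an unadjusted p below 0.05 in each genotype included genes that were not among the 24, of which the 5 named here were chosen after their values were seen. Rgs4, which shortens signalling by G protein-coupled receptors, had an interaction of 0.28 (SE 0.08) around a mean of 209 CPM, and 0.15 with the GC offset (unadjusted p = 0.0678). Vdac2, a channel of the outer mitochondrial membrane, had 0.30 (SE 0.09), and 0.25 with the offset (unadjusted p = 0.00712). Lrp1, an endocytic receptor for apolipoprotein E, had -0.51 (SE 0.15), and -0.27 with the offset (unadjusted p = 0.00497). The histone methyltransferase gene Kmt2d had -0.34 (SE 0.10), and -0.11 with the offset (unadjusted p = 0.286). Tst, the mitochondrial sulfur transferase rhodanese, had -0.96 (SE 0.32) around a mean of 4.56 CPM, and -0.85 with the offset (unadjusted p = 0.00846).

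The genes that vitamin B6 serves were examined next, from a list of the salvage enzymes, phosphatases and pyridoxal phosphate-dependent enzymes. Of 44 tested, 0 had a higher diet difference in KO and 2 (Shmt2 and Cbs) a lower one at an unadjusted p below 0.05, against 4.64% and 4.81% over all genes. The median interaction of the list was -0.10, against -0.01 over all genes; it was -0.03 without mouse 268 and -0.04 with the GC offset. Shmt2, the mitochondrial serine hydroxymethyltransferase that feeds one-carbon units from serine, was at 5.64, 7.63, 7.80, 8.42 and 10.8 CPM in KO on the normal diet and at 8.01, 5.93, 5.92, 6.59 and 5.91 CPM on the lacking diet. In WT it was at 6.84, 8.16, 4.78, 3.90 and 5.09 CPM against 8.51, 7.36, 10.3, 8.51 and 6.9996 CPM. The diets overlapped in both genotypes, and the interaction was -0.85 (SE 0.27, unadjusted p = 0.00377, adjusted p 0.514), or -0.63 with the GC offset. Cbs, cystathionine beta-synthase, the first enzyme of transsulfuration, averaged 11.6 ± 1.53 and 9.73 ± 1.04 CPM (SD, n = 5) in KO and 9.57 ± 1.23 and 10.8 ± 1.63 CPM in WT, with an interaction of -0.42 (SE 0.19). Its GC content of 49.8% was near the median, and its interaction was -0.40 with the GC offset. Got2, the mitochondrial aspartate aminotransferase, had -0.25 (unadjusted p = 0.0565).

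The list of serine, one-carbon and transsulfuration genes holds Shmt2 and Cbs too, and had 1 member higher (Psph) and 2 lower among 27 tested, with a median of -0.02, or -0.14 without mouse 226 and 0.02 without mouse 286. Methylglyoxal and glycation handling gave 0 higher and 1 lower among 20. This was Aldh2, mitochondrial aldehyde dehydrogenase, at 38.1 ± 3.02 and 31.7 ± 3.73 CPM in KO and 33.9 ± 5.93 and 38.1 ± 8.00 CPM in WT (interaction -0.44, unadjusted p = 0.0263, and 0.0802 with the GC offset). Aldh3a2, a fatty aldehyde dehydrogenase, was next at 0.19 (unadjusted p = 0.142). Among 50 antioxidant and glutathione genes 2 were higher and 2 lower, against 4.64% and 4.81% over all genes. The glutathione transferase gene Gstt1 had -1.22 (SE 0.50), and the mitochondrial glutaredoxin gene Glrx2 had 0.24 (SE 0.10).

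Vitamin B6 is needed to make GABA, and the genes of inhibitory synapses were counted next. The shares over all genes were 4.64% higher and 4.81% lower, or 2.02% and 2.24% with the GC offset. Of 24 genes of GABA-A receptor subunits and GABA handling, 5 had a higher diet difference in KO at an unadjusted p below 0.05 and 0 a lower one, with a median interaction of 0.14. They included the receptor subunits Gabra4 (0.33), Gabrb1 (0.19) and Gabrg1 (0.44); Gabra4, and below Gad1, Gad2 and Ttr, were named after their values were seen. Gabrg1 was at 50.8, 43.2, 39.4, 43.2 and 44.6 CPM in KO on the normal diet and at 46.4, 50.4, 60.1, 49.3 and 58.0 CPM on the lacking diet. In WT it was at 47.9, 38.5, 59.3, 61.98 and 54.1 CPM against 40.4, 67.8, 41.99, 41.7 and 38.8 CPM. The diets overlapped in both genotypes, and mouse 226 was the highest of all 20 libraries; without it the interaction was 0.62. These 3 are GC-poor transcripts, from 35.3% (Gabrg1) to 42.2% (Gabra4), and with the GC offset 0 genes of the list were higher and 1 lower, with a median of 0.05. The interaction of Gabrg1 was then 0.16 (unadjusted p = 0.184), and that of Gabrb1 changed sign, at -0.00042. Gad1 and Gad2, the pyridoxal phosphate-dependent decarboxylases that make GABA, had interactions of 0.19 (unadjusted p = 0.065) and 0.18 (unadjusted p = 0.149).

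The next lists were read against the same 4.64% higher and 4.81% lower over all genes. Of 43 glutamate receptor and auxiliary subunits, 3 were higher (Gria3, Gria4 and Grik2, at 0.23, 0.23 and 0.25) and 0 lower, and the list's median was -0.02. With the GC offset the 3 subunits had 0.01, 0.11 and -0.0039. Among 73 potassium channel genes 5 were higher and 5 lower. Kcnv1, a silent subunit that modifies other channels, had 0.46 (SE 0.13), with opposite differences at an unadjusted p below 0.05 in each genotype, and 0.27 with the GC offset (unadjusted p = 0.00701). Kcna4 had 0.29. Of 61 genes of the synaptic vesicle and its release, 1 was higher and 4 were lower, among them Dnm1, the neuronal dynamin of vesicle recycling (-0.36). Of 33 immediate early genes 0 were higher and 1 (Arc, -0.46) was lower. Of 26 neuropeptide and granin genes 2 were higher and 1 was lower: Vgf, an activity-dependent secreted peptide, had -0.51 (SE 0.15), and Vip 0.45 (SE 0.18). Vgf had the highest GC content among the genes named here, 64.1%, and stood at -0.21 with the GC offset (unadjusted p = 0.145).

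Genes of energy metabolism and protein synthesis were counted against the same shares of 4.64% higher and 4.81% lower over all genes. Complex I had 0 higher and 1 lower (Ndufa11, -0.78) among 37, and complexes II to V had 2 higher and 3 lower among 41, with Cox7a2 at 0.29 and Cox8a at -0.73. The mitochondrial ribosome had 2 higher and 3 lower (Mrpl27, -0.46) among 73, and the cytosolic ribosome 1 higher and 4 lower among 82. Rpl7a (-0.32) and Rps18 (-0.44) were among the latter, and ribosomal protein genes share sequence with many pseudogenes, so their counts are uncertain. Glycolysis, pyruvate and TCA cycle enzymes had 4 higher and 2 lower among 43. The higher ones included Pdhb (0.26) and Dld (0.29), a subunit and the shared dehydrogenase of the pyruvate dehydrogenase complex, and Sucla2 (0.29), a succinyl-CoA ligase subunit. With the GC offset Pdhb stood at 0.19 (unadjusted p = 0.0275) and Dld at 0.09 (unadjusted p = 0.238). Most of these 43 enzymes leaned the other way: 26 had a negative interaction, against 6919 of 13393 over all genes. Their median was -0.10, or -0.05 without mouse 286 and -0.03 with the GC offset.

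Genes of RNA splicing and of protein quality control came next, against the same 4.64% higher and 4.81% lower over all genes. With the GC offset these shares were 2.02% and 2.24%. Of 69 spliceosome and SR protein genes 7 were higher and 2 lower, with a median of 0.12, or 0.07 without mouse 286; with the GC offset 0 were higher and 2 lower, with a median of -0.0029. Hnrnpa3, an RNA-binding protein, had 0.23, and U2af2, which recognises the 3′ splice site, had -0.43. The list of nuclear-retained long noncoding RNAs had 1 member tested, which had 0.04. Of 30 genes of the unfolded protein and integrated stress response 0 were higher and 1 lower (Ddit4, -0.52), and 22 of 30 had a negative interaction. Over all genes 6919 of 13393 had a negative one. With the GC offset 0 members of this list were higher and 0 lower, 11 of 30 were positive, and the median was -0.05 in place of -0.13. Heat shock proteins and DnaJ cochaperones had 3 higher and 2 lower among 68, with Trap1 at -0.34, and the proteasome 2 higher and 1 lower among 36, with Psmb5 at -0.69. Of 24 glucocorticoid-responsive genes 2 were higher and 1 lower. The higher ones were Hsd11b1 (0.42, SE 0.13), which regenerates active glucocorticoid, and the receptor gene Nr3c1 (0.26, SE 0.11); Hsd11b1 had opposite differences at an unadjusted p below 0.05 in each genotype. Among 22 circadian clock genes 2 were higher and 2 lower, with Cry1, a repressor of the clock, at 0.68 (SE 0.23) and at 0.76 with the GC offset. Among 36 genes of cholesterol and fatty acid synthesis 1 was higher (Insig1, 0.39) and 3 were lower, with Fasn, fatty acid synthase, at -0.50.

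**Figure D4:**
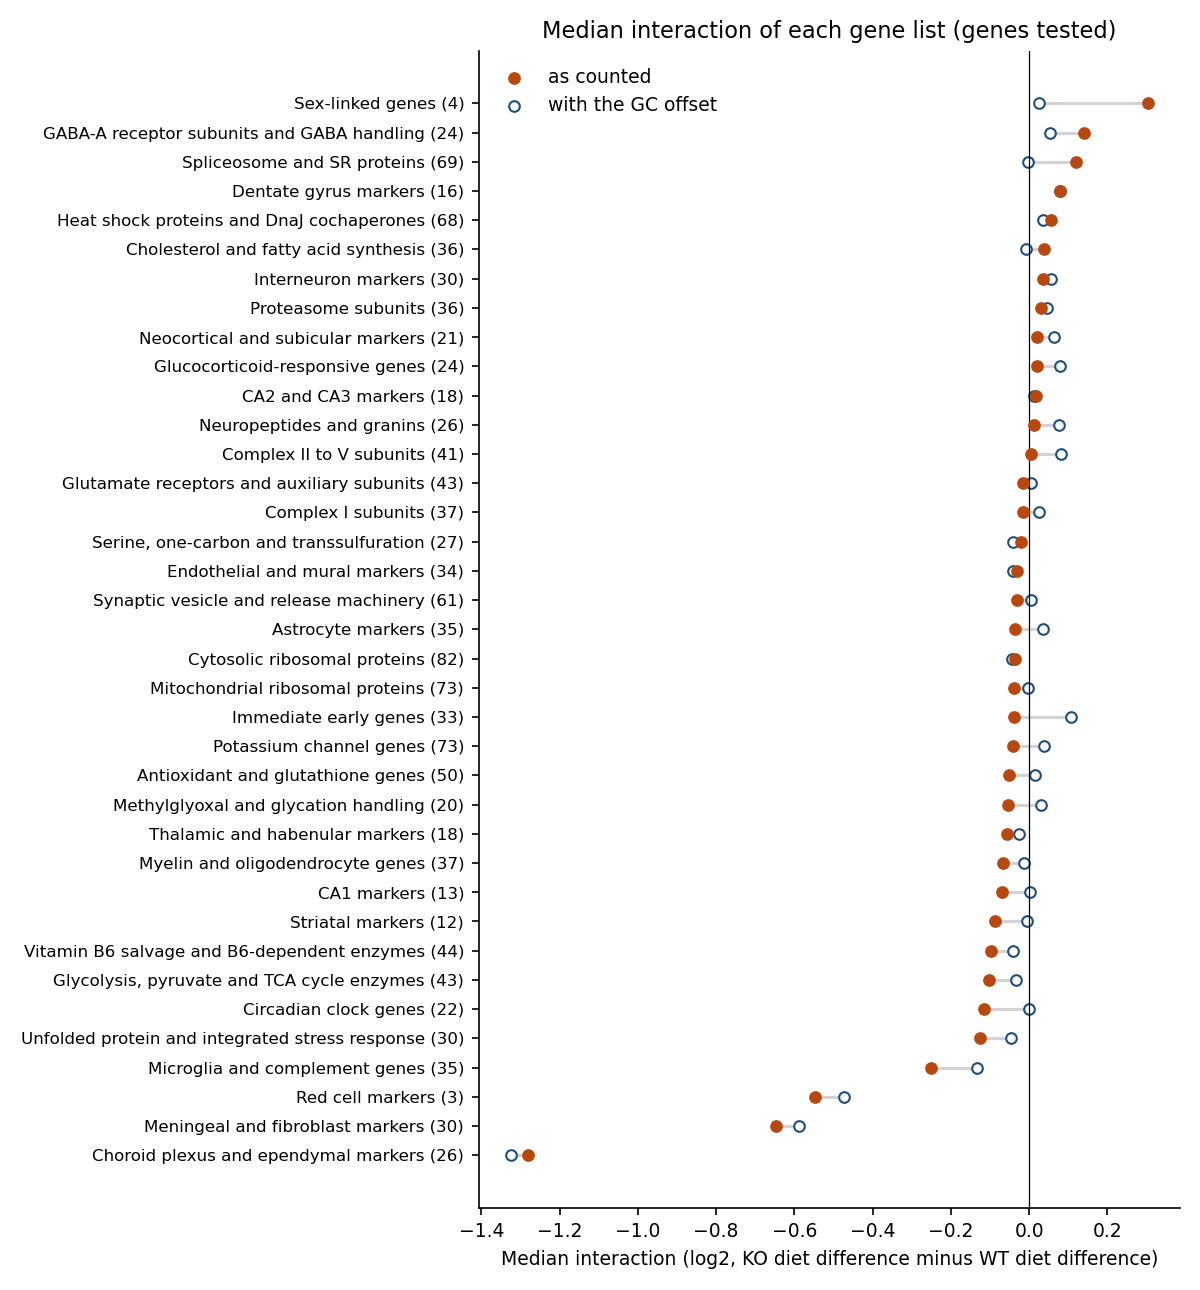
Median interaction (log2, KO diet difference minus WT diet difference) of the tested members of each gene list with at least 3 of them (number in brackets), as counted (filled) and with the GC offset (open). The lists of choroid plexus, meningeal, red cell and microglial markers lie lowest in both, and the GABA-A, spliceosome and sex-linked lists move towards 0 with the offset.

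The lists furthest from 0 were markers of tissue that borders the hippocampus. Shares over all genes were 4.64% higher and 4.81% lower, or 2.02% and 2.24% with the GC offset, and 6919 of 13393 had a negative interaction. Of 30 meningeal and fibroblast markers 28 had a negative interaction, 0 were higher and 8 lower at an unadjusted p below 0.05, and the median was -0.65, or -0.59 with the GC offset, where 4 were lower. They included Col1a2 (-1.07), a chain of collagen I, and Ptgds (-1.27), the prostaglandin D synthase of the meninges, as well as Col6a2. The summed level of the list was 361 to 1021 CPM and 325 to 671 CPM in KO on the normal and lacking diet, and 374 to 793 CPM and 372 to 1024 CPM in WT, so that all groups overlapped. Of 26 choroid plexus and ependymal markers 25 had a negative interaction, but only Foxj1, a regulator of cilia (-1.04), had an unadjusted p below 0.05. The median of -1.28 was -0.20 without mouse 267 and -0.54 without mouse 246. The summed level was 294 to 4137 CPM and 272 to 1068 CPM in KO on the 2 diets, and 317 to 2787 CPM and 365 to 3037 CPM in WT. Ttr, the choroid plexus transthyretin and most abundant of these markers, went from 2.68 to 1454 CPM over the 20 libraries and had an interaction of -1.79 (SE 1.85, unadjusted p = 0.342), which was -0.09 without mouse 267 and -3.09 without mouse 242. With the choroid plexus marker score of each library as a covariate, 1056 genes had an unadjusted interaction p below 0.05, among them all 24 genes named for opposite differences. These 24 had been chosen for small p-values in the same libraries, so their staying below 0.05 does not show what part choroid plexus tissue had. The part of meningeal tissue was not tested. In bulk tissue, fewer cells of a type and less RNA per cell cannot be told apart.

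Microglia are the immune cells of the brain. Of their markers and the complement genes, 0 of 35 were higher and 6 lower at an unadjusted p below 0.05, with a median interaction of -0.25 and 26 of 35 members negative. The 6 included Sall1 (-0.42), the transcription factor of microglial identity, Tmem119 (-0.59), a surface marker, and Tyrobp (-0.71), the adaptor of TREM2. With the GC offset 3 were lower and 0 higher, with a median of -0.13. Over all genes 4.64% were higher and 4.81% lower, or 2.02% and 2.24% with the offset. The summed level of the list overlapped between all groups: 737 to 803 CPM and 737 to 769 CPM in KO on the normal and lacking diet, and 746 to 874 CPM and 736 to 893 CPM in WT. Of 37 myelin and oligodendrocyte genes 0 were higher and 2 lower, the transcription factor genes Sox10 (-0.72) and Myrf (-0.56). Of 35 astrocyte markers 2 were higher, one being the glutamate transporter gene Slc1a3 (0.28), and 2 were lower, one being Slc7a10 (-0.65). Endothelial and mural markers had 1 higher and 3 lower (Eng, -0.74) among 34, and 1 of 3 red cell markers was lower (Hbb-bs, -0.55).

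Markers of the hippocampal fields and of neighbouring regions completed the lists, against the same 4.64% higher and 4.81% lower over all genes. Dentate gyrus markers had 2 higher (Stxbp6, 0.32) and 1 lower among 16, CA1 markers 0 higher and 1 lower (Fibcd1, -0.48) among 13, and CA2 and CA3 markers 0 in either direction among 18, the smallest p being that of Pcp4 (0.22, unadjusted p = 0.166). Interneuron markers had 2 higher, Dlx2 (0.85) and Vip, and 1 lower among 30. Striatal markers had 1 higher among 12, thalamic and habenular markers 0 among 18, and neocortical and subicular markers 1 higher and 1 lower among 21. Of 4 sex-linked genes tested 2 were higher, the Y-linked Eif2s3y (0.48, SE 0.15) and Uty (0.33, SE 0.13). Both have GC-poor transcripts of 36.4% and 35.8%, and had 0.20 and 0.03 with the GC offset (unadjusted p = 0.169 and 0.757).

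Without mouse 226 the share of all genes at an unadjusted p below 0.05 was 10.9% higher and 9.61% lower in KO, and the counts of most lists grew with it. Heat shock proteins and DnaJ cochaperones went to 16 higher and 3 lower, with a median of 0.11 in place of 0.06; without mice 226 and 286 they had 12 and 4, with a median of 0.05. Spliceosome genes went to 16 higher and 5 lower, glutamate receptors to 9 and 4, potassium channels to 10 and 7, and mitochondrial ribosomal proteins to 7 and 3. Cytosolic ribosomal proteins went to 2 higher and 10 lower, genes of the synaptic vesicle to 6 and 11, and glycolysis and TCA cycle enzymes to 5 and 9. Meningeal markers had 0 higher and 11 lower, microglia and complement genes 1 and 8, astrocyte markers 2 and 6, myelin genes 0 and 4, and choroid plexus markers 0 and 3. The vitamin B6 list had 0 higher and 3 lower, methylglyoxal handling 0 and 1, and the GABA-A list 6 and 1.

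The interaction was set beside that in the prefrontal cortex and striatum of the same mice. At an unadjusted p below 0.05 the prefrontal cortex gave 419 of 13223 genes (3.17%) and the striatum 226 of 13311 (1.7%), against the 9.45% of the hippocampus. The difference between regions, tested in 1 edgeR fit over all 60 libraries, gave 0 of 13930 genes (0%) at an adjusted p below 0.05 for the hippocampus against either region. At an unadjusted p below 0.05 it gave 775 genes (5.56%) against the prefrontal cortex and 320 (2.3%) against the striatum. None of the 24 genes named for opposite differences had an unadjusted p below 0.05 in either of the other regions. Of the 12 higher in KO, 7 had the same sign in prefrontal cortex and 12 in striatum; of the 12 lower in KO, 7 and 9 did. Over all genes 48.8% had the same sign as in the hippocampus in the prefrontal cortex and 63.8% in striatum.

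In prefrontal cortex Rrp12 had an interaction of 0.21 and in striatum one of 0.12, both opposite to the hippocampus, and differed from them at an unadjusted p of 0.00089 and 0.00217. Col6a2 had 0.34 and 0.05, and differed at 0.000382 and 0.00392. The adjusted p-values of these differences were 0.799 against the prefrontal cortex and 1.00 against the striatum, and since both genes were chosen for their values in the hippocampus, the unadjusted ones are too small. Among the 12 named genes lower in KO, Col6a2 had the smallest p of the difference against prefrontal cortex, and Rrp12 that against striatum. Of these 12, 9 differed from prefrontal cortex and 4 from striatum at an unadjusted p below 0.05 (edgeR). Of the 12 higher in KO, 8 and 2 did. Over all genes 716 of 13031 differed from prefrontal cortex and 278 of 13033 from striatum. The named genes were chosen for small interaction p-values in the hippocampus, which raises their counts. Cyth4 had -0.59 and -0.55 in these regions, against -0.71 in hippocampus (edgeR, unadjusted p of the difference 0.762 and 0.697). The correlation across genes between the interaction and GC content was -0.0452 for prefrontal cortex and -0.246 for striatum, against -0.475 for hippocampus.

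How many genes had a small interaction p depended on single libraries, as the plot of counts without each library shows. Without mouse 226 it was 2771 genes (20.5%), of which 1474 were higher and 1297 lower, with 169 (1.25%) and 81 (0.6%) opposite in both genotypes and 0 after adjustment (smallest adjusted p 0.124). Without mouse 273 it was 2076 genes and without mouse 286 it was 820. The count of genes with opposite differences in both genotypes, 42 in all libraries, was 250 without mouse 226, 144 without mouse 273 and 86 without mouse 267. It was 26 without mouse 325, 23 without mouse 225, 21 without mouse 286, 21 without mouse 390 and 19 without mouse 241. The count of genes with no overlap in either genotype, 1 in all libraries, lay between 1 and 5, the highest without mouse 242. Of the 1265 genes, 1174 were called in the same direction without mouse 226. All 24 named genes kept their sign and an unadjusted p below 0.05 in each of the 20 fits that left out 1 library; they had been chosen for small p-values in all 20 libraries together.

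**Figure D5:**
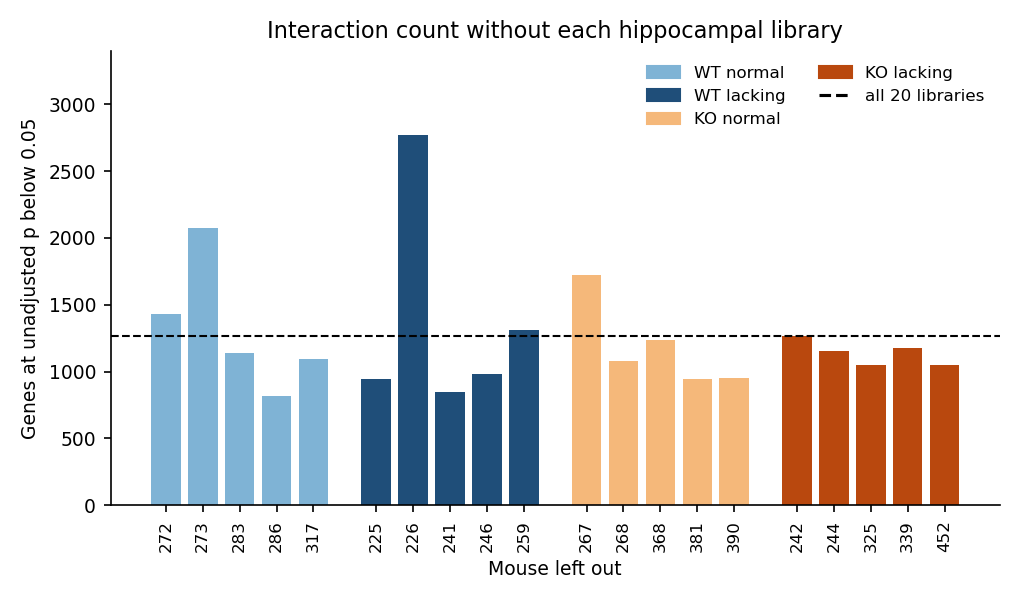
Number of genes with an unadjusted interaction p below 0.05 (vertical axis) when the hippocampal library of each mouse is left out (horizontal axis), coloured by group; the dashed line marks the 1265 genes of all 20 libraries. The count is highest without mouse 226 (2771) and lowest without mouse 286 (820).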

How the data were processed

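Poly(A) RNA of hippocampus, prefrontal cortex and striatum was sequenced as single 75-bp reads, per the labels' protocols. For 21999 genes in 60 libraries the deposited files give unnormalized whole-number counts and the authors' RPKM (counts relative to gene length and depth); RPKM served here for the tissue check and an alternative test. The submitters' processing notes name STAR 2.7.1a, HTSeq 0.9.1 and the mouse build mm10; annotation and strand setting are not given in the sources used here. All 60 value columns matched a sample by name.

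The 20 hippocampal libraries were fitted together with edgeR 4.0.16 in R 4.3.3: filterByExpr (minimum count 10, minimum total 15), TMM, a mean per group and two-sided quasi-likelihood tests, with Benjamini-Hochberg adjustment over 13393 genes. P-values measure the spread between mice. CPM are TMM-scaled. Named genes are, at a mean of at least 1 CPM, the 12 of smallest interaction p in each of the 2 opposite directions, and up to 3 per gene list (38 lists), with Glo1 as a label check; some of these genes are counted but not reported here. Members and lists were chosen with earlier results of these data known. Transcript GC content came from the longest GENCODE M21 transcript, matched by symbol for 13093 genes; promoter windows came from RefSeq (GRCm38.p6). The GC offset was a lowess trend (span 0.3) of each library's deviations over GC content. Genes without a GC value received no offset. Alternatives used DESeq2 1.42.0 and limma 3.58.1, and are given in the closing section. Replicates differed by more than sampling noise in all 40 pairs (chi-square per gene 2.97 to 27.5). Same-numbered libraries of the 3 regions come from 1 mouse, and their residuals had a mean correlation of 0.0537, against -0.0125 between different mice. The scripts were tested on simulated data.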

Additional observations from a re-analysis of the deposited data

Results flagged for a closer look

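In 23 of 376 groups of 5 libraries (90 genes, the marker sums and the GC difference), 1 library lay apart: its gap to the nearest library, divided by the range of the group, was above 0.71. Chance gives about 1 in 20 such groups. Mouse 226 was the library apart in 7 groups and mouse 286 in 4, none of them for the GC difference. Vps36 was at 27.3 CPM in mouse 226, against 30.8 to 31.9 CPM in the other WT lacking-diet libraries (ratio 0.756). Syvn1 was at 11.7 CPM in mouse 226, against 17.6 to 18.7 CPM in the other WT lacking-diet libraries (ratio 0.84). Ercc4 was at 26 CPM in mouse 226, against 22 to 22.8 CPM in the other WT lacking-diet libraries (ratio 0.788). Gabrg1 was at 67.8 CPM in mouse 226, against 38.8 to 42 CPM in the other WT lacking-diet libraries (ratio 0.889). Slc7a10 was at 5.54 CPM in mouse 226, against 8.84 to 9.5 CPM in the other WT lacking-diet libraries (ratio 0.833). Fasn was at 75.6 CPM in mouse 226, against 96 to 103 CPM in the other WT lacking-diet libraries (ratio 0.749). Rgs4 was at 204 CPM in mouse 226, against 190 to 193 CPM in the other WT lacking-diet libraries (ratio 0.765). Gria3 was at 517 CPM in mouse 286, against 395 to 420 CPM in the other WT normal-diet libraries (ratio 0.79). Fasn was at 57.7 CPM in mouse 286, against 79.7 to 84.9 CPM in the other WT normal-diet libraries (ratio 0.81). Stxbp6 was at 435 CPM in mouse 286, against 333 to 353 CPM in the other WT normal-diet libraries (ratio 0.801). Gad2 was at 437 CPM in mouse 286, against 305 to 329 CPM in the other WT normal-diet libraries (ratio 0.822). Rad51ap2 was at 2.69 CPM in mouse 273, against 4.66 to 5.16 CPM in the other WT normal-diet libraries (ratio 0.798). Tst was at 6.21 CPM in mouse 273, against 2.98 to 3.32 CPM in the other WT normal-diet libraries (ratio 0.895). Cox7a2 was at 85.5 CPM in mouse 244, against 76.9 to 79.1 CPM in the other KO lacking-diet libraries (ratio 0.748). Vdac2 was at 152 CPM in mouse 244, against 134 to 139 CPM in the other KO lacking-diet libraries (ratio 0.713). Ttr was at 1454 CPM in mouse 267, against 19 to 415 CPM in the other KO normal-diet libraries (ratio 0.724). The summed choroid plexus and ependymal markers were at 4137 CPM in mouse 267, against 294 to 1271 CPM in the other KO normal-diet libraries (ratio 0.746). Aldh3a2 was at 39.3 CPM in mouse 246, against 48.2 to 51.6 CPM in the other WT lacking-diet libraries (ratio 0.726). Uqcr10 was at 28.6 CPM in mouse 390, against 19.5 to 21.7 CPM in the other KO normal-diet libraries (ratio 0.766). Rps18 was at 21.6 CPM in mouse 241, against 15.5 to 17.2 CPM in the other WT lacking-diet libraries (ratio 0.724). Myrf was at 35.3 CPM in mouse 268, against 23.5 to 26.1 CPM in the other KO normal-diet libraries (ratio 0.775). Gad2 was at 317 CPM in mouse 325, against 351 to 359 CPM in the other KO lacking-diet libraries (ratio 0.801). Rgs4 was at 234 CPM in mouse 317, against 206 to 212 CPM in the other WT normal-diet libraries (ratio 0.762). The diet difference of Ercc4 ran in opposite directions in the 2 genotypes, with no overlap in either (interaction -0.393, edgeR unadjusted p = 0.00182, adjusted p 0.514).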

How the results depend on the processing

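The interaction had 0 genes at an adjusted p below 0.05 in edgeR under all alternatives run: DESeq2, library totals without TMM, no filter on low counts, a mean of at least 1 CPM, RNA integrity as a covariate, limma on log2(RPKM + 1) and log2(RPKM + 0.1), and each library left out. Chosen after seeing the data were the GC offset, a choroid plexus marker score as a covariate, and leaving out mice 226 and 286 with or without the offset; these gave 0 as well. The count at an unadjusted p below 0.05, 1265, was 571 with the GC offset, 2187 without mice 226 and 286, 752 with both changes, and 820 to 2771 with 1 library left out. The 42 genes with opposite differences became 15 with the GC offset, 149 without mice 226 and 286, and 19 to 250 with 1 library left out. The count of 1 gene without overlap in either genotype became 2 without TMM and on both RPKM scales, 5 without mice 226 and 286, 4 with the offset as well, and 1 to 5 with 1 library left out. The causes were not tested. Signs reversed with the GC offset for Gabrb1 (-0.00042) and Grik2 (-0.0039). With the offset and without mice 226 and 286 they reversed for Gabrb1 (-0.0224), Gria3 (-0.0456), Grik2 (-0.0697), Hnrnpa3 (-6.8e-05), Uty (-0.0516) and Gad2 (-0.0131). These are 8 of 979 values of named genes, and 0 of 1780 reversed with 1 library left out.

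The difference between regions with mouse as a replicate block gave 0 genes at an adjusted p below 0.05 against either region. Unadjusted, the block gave 780 genes against the prefrontal cortex and 332 against the striatum. The block was run for these differences only; it changed no adjusted call. Between 9081469 and 13928265 counts a library, genes near 1 CPM such as Cr2 and Col26a1 rest on few reads, which limits their precision.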
